A study of Mus musculus with 2 samples.

Results

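Ccr7 dendritic cells were examined in ulcerated mouse skin as the barcodes that held MHC class II message together with at least 2 of the transcripts Ccr7, Fscn1 and Ccl22. A barcode was taken when it passed 5 limits: H2-Aa and Cd74 made up at least 0.5% of its UMIs (unique molecular identifiers, 1 per captured transcript), at least 2 of the 3 migratory genes had a UMI, the collagen genes Col1a1, Col1a2 and Col3a1 stayed under 0.3%, S100a8 and S100a9 stayed under 1%, and C1qa had no UMI. The rule found 203 cells among the 31252 barcodes kept for analysis, 46 of 14415 in the library labelled with whole-body Has2 overexpression (Has2-transgenic) and 157 of 16837 in the wild-type (WT) library.

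Dendritic cells that have taken up antigen in the skin switch on the chemokine receptor Ccr7, leave along lymphatic vessels towards Ccl19 and Ccl21, and present what they carried to T cells in the draining lymph node. The same switch raises costimulatory molecules, the actin-bundling protein fascin (Fscn1), and the chemokines Ccl22 and Ccl17, which draw T cells that bear Ccr4. Cells of this state, whatever their origin, also carry regulatory genes such as Cd274 (PD-L1), Cd200 and Il4i1.

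The study compared scratching-induced ulcerative dermatitis in mice that overexpress Has2, an enzyme that makes hyaluronan, with that in WT mice. Lesional skin of both genotypes had been tape-stripped daily for 15 days, 40 to 50 strips per day, to imitate scratching, and each genotype had 1 library of 10x Genomics droplet data. The molecule is labelled polyA RNA for the Has2-transgenic library and total RNA for the WT library, and whether their preparation differed cannot be told apart from genotype. The labels do not give the promoter of the transgene, the age of the mice or the number of mice pooled, and the treatment label opens in mid-sentence, so a step before the stripping may be missing from it. Has2 itself, over all kept barcodes, stood at 85.8 CPM (UMIs scaled to a total of 1000000) in the Has2-transgenic library, against 71.5 CPM in the WT library, and whether transcripts of the transgene map to this gene is not given in the sources used here. With 1 library per genotype no spread between animals could be measured, so no test was made, and all intervals below are 95% intervals of counting error alone.

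The Ccr7 dendritic cells had a median of 9598 UMIs (1769 to 26521) in the Has2-transgenic library, against 11067 (927 to 37474) in WT, and 470312 against 1892836 UMIs in all. The libraries shared 79 barcode sequences, 3 of them among the Ccr7 dendritic cells. Cells just inside the rule had 0.731% (Has2-transgenic) and 0.535% (WT) of UMIs from H2-Aa and Cd74, and the nearest cells that failed this limit alone had 0.28% and 0.442%.

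The sequences below are the promoters of Ccl17 and Ccl22, the chemokine pair whose transcripts mark these cells and differed between the libraries. Each window holds the 250 bases before the annotated start, from RefSeq on build GRCm38.p6, and the genes lie 64.8 kb apart on the plus strand of chromosome 8. Capitals mark TTAAATA, an AT-rich motif, and GGGACTT, a motif of the NF-kB type, both searched over the whole window on both strands.
Ccl17 (chr8:94810203-94810452): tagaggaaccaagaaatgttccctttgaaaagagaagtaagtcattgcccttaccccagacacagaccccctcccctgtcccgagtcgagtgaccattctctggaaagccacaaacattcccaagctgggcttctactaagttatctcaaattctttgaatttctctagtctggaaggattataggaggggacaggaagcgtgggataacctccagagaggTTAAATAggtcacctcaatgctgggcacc
Ccl22 (chr8:94745434-94745683): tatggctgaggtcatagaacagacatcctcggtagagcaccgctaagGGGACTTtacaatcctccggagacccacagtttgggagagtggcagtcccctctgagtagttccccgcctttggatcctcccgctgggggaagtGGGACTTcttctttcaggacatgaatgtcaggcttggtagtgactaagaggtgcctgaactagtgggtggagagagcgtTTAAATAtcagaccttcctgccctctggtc
TTAAATA began 29 bases before the start in Ccl17 and 30 bases before it in Ccl22. Of the 32851 RefSeq windows of this length, 4.18% held it at any position. GGGACTT occurred at 203 and at 109 bases before the start of Ccl22 only, and 4.65% of windows held it. These matches describe letters and are not evidence of a bound factor.

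The label was checked against migratory dendritic cell genes that the rule did not use. After cells were thinned to 3000 UMIs, which left out 2 of the 46 Has2-transgenic and 5 of the 157 WT cells as too shallow, the Ccr7 dendritic cells had a median of 8 of these genes detected in the Has2-transgenic library and 9 in WT. Conventional dendritic cells, gated as MHC class II barcodes with at least 2 of 9 genes such as Flt3, Zbtb46, Xcr1 and Cd209a but none of Ccr7, Fscn1 and Ccl22, had 2 and 3. In the MHC class II macrophage gate, which required C1qa, the medians were 1 and 2, with 48 of 537 Has2-transgenic and 13 of 173 WT cells left out. At least 3 of the genes were found in 97.7% of Ccr7 dendritic cells of the Has2-transgenic library and in 95.4% of those of WT. The same held for 41.5% and 63.8% of conventional dendritic cells and for 22.9% and 30.6% of the macrophage gate, so this number of genes alone does not set a cell apart.

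Fewer Ccr7 dendritic cells were captured in the Has2-transgenic library. They made up 0.319% of its kept barcodes (exact binomial interval 0.234% to 0.425%), against 0.932% (0.793% to 1.09%) in WT (ratio 0.342, 0.241 to 0.478). Among barcodes with MHC class II message the shares were 4.23% of 1087 in the Has2-transgenic library and 16.5% of 952 in WT (ratio 0.257, 0.181 to 0.358). A share falls when other cells are more numerous as well as when these cells are fewer, and the difference cannot be told apart from one between individual mice or dissociations.

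Cells with none of the migratory genes were about equally common in both libraries. MHC class II barcodes that met the other limits and had none of the 3 genes were 2.55% of kept barcodes in the Has2-transgenic library and 2.54% in WT. Those with 1 of the genes stood at (ratio 0.439, 0.311 to 0.612), those with 2 at 0.398 (0.258 to 0.6), and those with all 3 at 0.26 (0.134 to 0.468), from 14 Has2-transgenic and 63 WT cells. These 3 intervals overlap, so an order among them is not shown. Conventional dendritic cells made up 0.465% of barcodes in the Has2-transgenic library and 0.558% in WT, a ratio of 0.833 whose interval (0.599 to 1.15) includes 1. The MHC class II macrophage gate ran the other way, at 3.73% against 1.03% in WT.

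**Figure D1:**
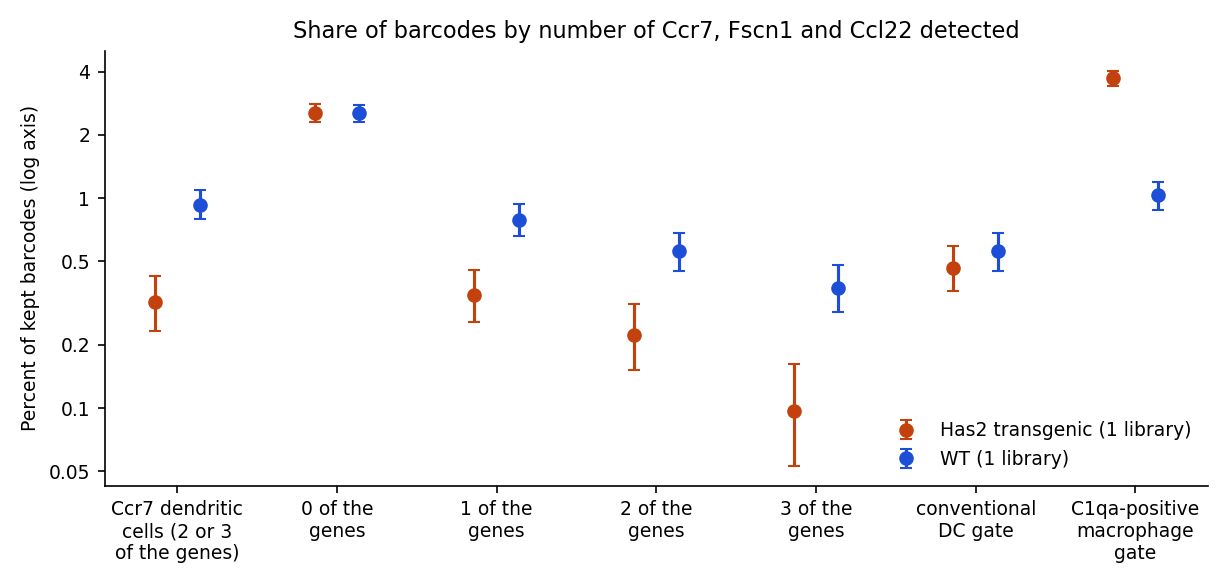
Share of kept barcodes (percent, log axis) in each gate, with the Has2-transgenic library left of WT. Points are single libraries and bars are exact 95% binomial intervals of counting error; Ccr7 dendritic cells stood at 0.319% and 0.932%, whereas cells with none of the migratory genes stood at 2.55% and 2.54%.

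The 3 genes of the rule are given as a description, since they chose the cells. Ccr7 was at 2781 CPM in Has2-transgenic cells, against 2150 CPM in WT cells. Ccl22 was at 833 CPM in Has2-transgenic cells and 1182 CPM in WT cells, and Fscn1 at 406 and 611 CPM. Ccr7 was found in 97.8% of the Has2-transgenic and 98.7% of the WT cells and Ccl22 in 91.3% and 92.4%, but Fscn1 in only 41.3% and 49%. The commonest combination was therefore Ccr7 with Ccl22 and no Fscn1, in 58.7% and 51% of the cells.

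Since a Ccl22 UMI was among the criteria of the rule, the share of Ccl22 held by these cells is a description. Of all Ccl22 UMIs in kept barcodes, 89.3% lay in the 46 Has2-transgenic cells and 82.5% in the 157 WT cells. Their share of the Ccr7 UMIs was 63.7% and 62%, of the Ccl17 UMIs 47% and 48.5%, and of the Il12b UMIs 83.9% and 74.2%. The Il12b message, which encodes a subunit of interleukin-12, came from 3 Has2-transgenic cells (26 UMIs) and 12 WT cells (190 UMIs). Of these UMIs, 1 Has2-transgenic cell held 24 and 1 WT cell held 122. Over all kept barcodes, Ccl22 stood at 3.26 CPM in the Has2-transgenic library and 18.9 CPM in WT (ratio 0.173, 0.156 to 0.191). In neutrophils, gated on S100a8 and S100a9 and not expected to make Ccl22, a Ccl22 UMI was found in 0.0376% of Has2-transgenic and 0.0447% of WT cells at median depths of 2108 and 3150 UMIs.

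Ccl17, the other Ccr4 ligand, differed between the libraries within the Ccr7 dendritic cells as well as in their number. It was at 168 CPM in Has2-transgenic cells (79 UMIs in 46 cells), against 520.4 CPM in WT cells (985 UMIs in 157 cells), and the ratio was 0.323 (0.253 to 0.406). A Ccl17 UMI was found in 23.9% of the Has2-transgenic and 50.3% of the WT cells, and in 18.2% of 44 and 34.9% of 152 after thinning to 3000 UMIs. The conventional dendritic cell gate differed further, with Ccl17 at 5.06 CPM in the Has2-transgenic library and 159.8 CPM in WT and a UMI in 2.99% and 20.2% of its cells. The direction was the same in all 16 alternative treatments of the data, with log2 ratios between -2.39 and -1.42. Over the whole library the ratio was 0.0883 (0.075 to 0.103), at 1.25 CPM in the Has2-transgenic library and 14.1 CPM in WT. Ccl22 per cell differed less (ratio 0.705, 0.632 to 0.785).

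**Figure D2:**
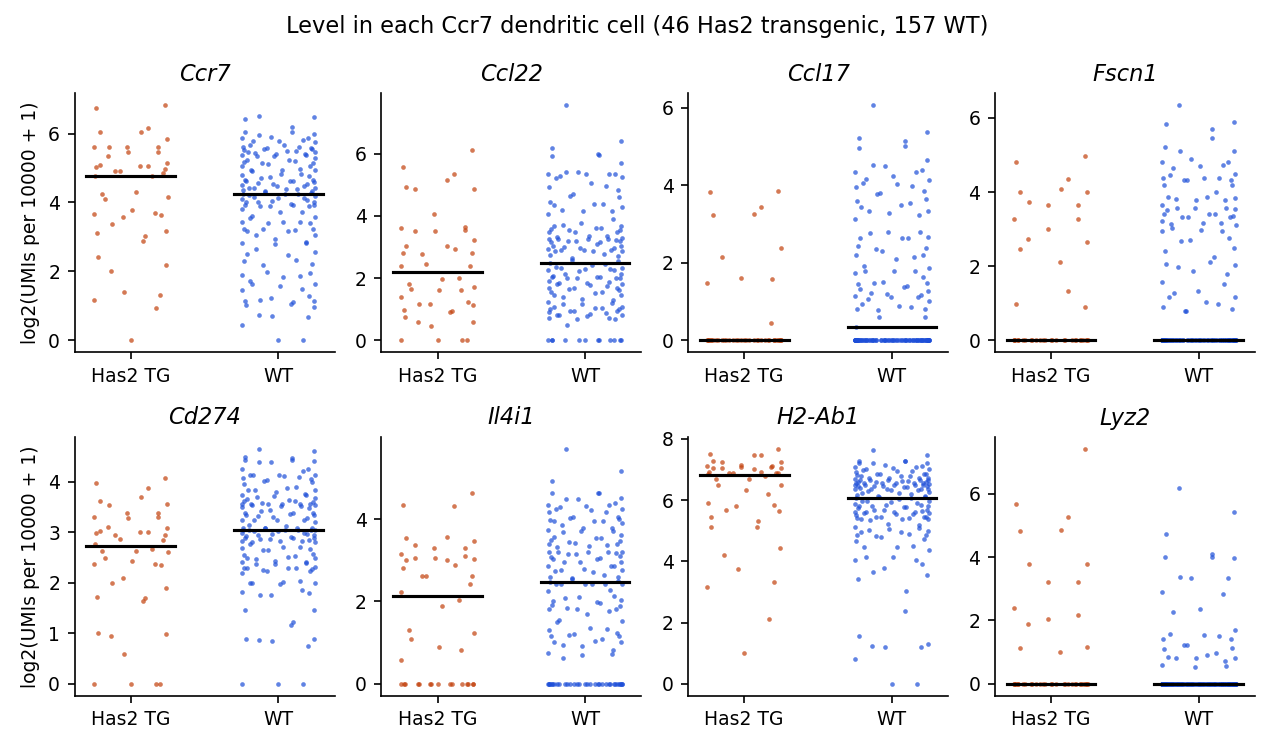
Level of 8 genes in each Ccr7 dendritic cell, as log2(UMIs per 10000 UMIs of the cell + 1), with the 46 Has2-transgenic cells left of the 157 WT cells; bars are medians. Ccl17 was found in 23.9% of the Has2-transgenic and 50.3% of the WT cells, and the cells of both libraries overlap for every gene shown.

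Across all genes with at least 20 UMIs in these cells, 280 of 7765 (3.61%) were at least 2-fold higher in Has2-transgenic cells and 632 (8.14%) at least 2-fold lower. Scaled by the median ratio of well-detected genes in place of total UMIs, the split was 361 and 526. The median log2 ratio of all genes was -0.07, and 43.5% of them were higher in Has2-transgenic cells, against which the counts of the gene lists below are to be read. Among genes with at least 100 UMIs, 42 (1.21%) were past 2-fold higher and 102 (2.94%) past 2-fold lower, so most well-measured genes differed by less than that.

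Antigen presentation genes of class II were among the higher ones. Of 13 measured and not used by the rule, 10 were higher and 3 lower in Has2-transgenic cells, with a median log2 ratio of 0.24 and H2-Oa past 2-fold. H2-Ab1 was at 9802 CPM in Has2-transgenic and 7069 CPM in WT cells (ratio 1.39, 1.34 to 1.43). H2-Oa, part of a chaperone that restrains peptide loading, was at 95.7 and 27.5 CPM (ratio 3.48, 2.28 to 5.29). In the conventional dendritic cell gate, 15 class II genes including H2-Aa and Cd74 summed to 65020 CPM in Has2-transgenic and 50795 CPM in WT. They summed to 33188 and 23488 CPM in the macrophage gate, so this difference was not confined to the Ccr7 dendritic cells. All of these gates required H2-Aa and Cd74, so the other class II genes may not be independent of the rule. Of 14 class I and peptide-loading genes none was past 2-fold, and 7 were higher and 7 lower.

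Costimulatory genes were not uniformly lower or higher. Of 10 measured, 5 stood higher in Has2-transgenic cells and 5 lower, with a median of -0.02. Cd86 was at 653 CPM in Has2-transgenic and 693 CPM in WT cells (ratio 0.942, 0.829 to 1.07). Cd80 was at 525 and 745 CPM (ratio 0.705, 0.613 to 0.808), and Cd40 at 170.1 and 153 CPM (ratio 1.11, 0.859 to 1.43). Tnfsf4 (OX40L), which favours type 2 T cell help, was the 1 gene past 2-fold, at 65.9 CPM in Has2-transgenic cells and 31.2 CPM in WT cells, but its log2 ratio was 0.87 with the top cell of each library left out.

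Several genes that restrain T cells were lower in Has2-transgenic cells by less than 2-fold. Cd274 was at 553 CPM against 789 CPM in WT cells (ratio 0.701, 0.612 to 0.8). Pdcd1lg2 (PD-L2) was at 253 and 365 CPM (ratio 0.693, 0.566 to 0.843), and the amino acid oxidase gene Il4i1 was at 472 and 639 CPM (ratio 0.739, 0.638 to 0.853). Over the whole list of 14 measured regulatory genes, 8 were higher and 6 lower, so these 3 do not stand for the list. Entpd1 (CD39), which breaks down extracellular ATP, was past 2-fold at 36.1 and 14.3 CPM, and Itgb8 was past 2-fold on 11 and 14 UMIs, of which 1 cell held 72.7% and 50%.

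Chemokine and guidance receptors other than Ccr7 were mixed. Ptger4, the prostaglandin E2 receptor EP4, was at 61.7 CPM in Has2-transgenic cells and 139 CPM in WT cells (ratio 0.442, 0.29 to 0.65), with a UMI in 30.4% and 61.8% of cells. Gpr183, the oxysterol receptor that positions dendritic cells, was at 727 and 835 CPM, and Cxcr4 at 398 and 289.5 CPM. Ccrl2, a Ccl19- and chemerin-binding receptor, was higher, at 55.3 against 7.92 CPM in WT cells. Of 10 receptors measured besides Ccr7, 3 were higher and 7 lower, and Ackr3 had no UMI in Has2-transgenic cells and 40 UMIs in WT cells, 97.5% of them in 1 cell.

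Among transcription factors, Irf4, which drives the migratory and type 2 programme of dendritic cells, stood lowest. It had 14.9 CPM in Has2-transgenic cells (7 UMIs) and 84.5 CPM in WT cells (160 UMIs). The ratio was 0.176 (0.0697 to 0.371), with a UMI in 10.9% and 28% of cells. Irf4 does not stand for the type 2 markers as a list. Of 7 measured, Irf4 among them, 5 were higher and 2 lower in Has2-transgenic cells, with a median log2 ratio of 0.33. Nr4a3, needed for Ccr7 expression in migrating mouse dendritic cells, was at 691 and 1044 CPM (ratio 0.662, 0.587 to 0.744). Relb was at 449 CPM in both, and Nfkb1 at 980.2 and 1450 CPM (ratio 0.676, 0.611 to 0.747). Of 19 factors measured, 6 were higher and 13 lower, of which Irf4 and Spib, with 2 and 27 UMIs, were past 2-fold.

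The cytoskeletal and migration genes shifted little. Of 20 measured besides Fscn1, none was past 2-fold, with 7 higher, 13 lower and a median log2 ratio of -0.16. Tmsb4x, the actin-sequestering thymosin, was at 23542 CPM in Has2-transgenic cells and 29138 CPM in WT cells. Cfl1, which severs actin filaments, was at 1873 and 1851 CPM. Of 17 adhesion and matrix-degrading genes measured, 9 were higher and 8 lower. Cd44, a receptor for hyaluronan, was at 410.4 CPM in Has2-transgenic cells and 604 CPM in WT cells (ratio 0.68, 0.58 to 0.792). The hyaluronan list as a whole had 5 genes higher and 6 lower of 11 measured. Has2 itself had 1 UMI in 1 Has2-transgenic cell and 20 UMIs in 1 WT cell, so the Ccr7 dendritic cells held next to none of the transcript.

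Survival genes were likewise close. Of 15 apoptosis genes measured, 4 were higher and 11 lower in Has2-transgenic cells, with a median log2 ratio of -0.18. Bcl2a1b, an NF-kB target of the Bcl2 family, was at 1752 CPM in Has2-transgenic cells and 2175 CPM in WT cells, with near-identical paralogues that may share its reads. Of 15 genes of the TSLP and interleukin-4/13 response measured and not used by the rule, 9 were higher and 6 lower, and past 2-fold were Tnfsf4 and, in the other direction, Ccl17. Crlf2, the TSLP receptor chain, was at 89.3 CPM in Has2-transgenic cells and 67.6 CPM in WT cells, and its interval (0.909 to 1.88) includes 1. Cish, a STAT5 target, was at 99.9 and 156 CPM (ratio 0.639, 0.459 to 0.872).

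Interferon-response genes stood lower as a list but rested on few transcripts. Of 18 measured, 15 were lower in Has2-transgenic cells, 9 past 2-fold, and 1, Oasl1, was past 2-fold higher, with a median log2 ratio of -0.77. Gbp5 was at 19.1 CPM in Has2-transgenic cells and 43.3 CPM in WT cells (ratio 0.442, 0.195 to 0.88). For Cxcl10, 1 WT cell held 92.4% of the UMIs. The list's median ranged from -1.17 to 0.02 over the alternatives, with the value above 0 among the cells that held all 3 genes of the rule.

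Genes of oxidative-stress defence were higher in the Has2-transgenic cells. Of 13 measured, 11 were higher and 2 lower. Hmox1, Srxn1 and Nqo1 were past 2-fold higher and Mt2 past 2-fold lower, and the list had a median log2 ratio of 0.43, ranging from 0.00 to 0.79 over the alternatives. One WT cell held 61.6% of the Mt2 UMIs, and without the top cells its log2 ratio was -0.80. Hmox1, the haem oxygenase, was at 1121 CPM in Has2-transgenic cells and 412 CPM in WT cells (ratio 2.72, 2.43 to 3.04). Srxn1, which repairs peroxiredoxins, was at 408 and 139 CPM (ratio 2.93, 2.42 to 3.54), and Prdx1 at 1678 and 891 CPM (ratio 1.88, 1.73 to 2.05). Among cells with all 3 genes of the rule the log2 ratios were 0.81 for Hmox1 and 0.29 for Srxn1, both short of 2-fold. The conventional dendritic cell gate differed the same way, with Hmox1 at 6285 CPM in the Has2-transgenic library and 1511 CPM in WT, so this difference was not confined to the Ccr7 dendritic cells.

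Several myeloid genes were among the highest relative to WT in Has2-transgenic cells. Lyz2, lysozyme of macrophages and granulocytes, was at 1123 CPM in Has2-transgenic cells and 250.4 CPM in WT cells (ratio 4.48, 3.95 to 5.09), with a UMI in 34.8% and 21.7% of cells. Cd14, a lipopolysaccharide co-receptor, was at 1473 and 440.1 CPM (ratio 3.35, 3.02 to 3.71). Clec4d, a C-type lectin of myeloid cells, was at 485 and 195 CPM (ratio 2.48, 2.09 to 2.93). Whole libraries also differed in Lyz2, at 2149 CPM in the Has2-transgenic and 1206 CPM in the WT library, but not in that direction for Cd14, at 1579 and 2015 CPM. Neutrophils count towards that Cd14 level, with a UMI in 98.6% of Has2-transgenic and 98.7% of WT ones. The conventional dendritic cell gate differed in the same direction for all 3 genes. There Lyz2 was at 9285 CPM in Has2-transgenic and 2699 CPM in WT, Cd14 at 2674 and 1475 CPM, and Clec4d at 1064 and 671 CPM. Unrelated cells also held some of these transcripts. Of 130 keratinocytes in the Has2-transgenic library, at a median of 25388 UMIs, 10% had a Lyz2 UMI and 17.7% a Cd14 UMI. In these keratinocytes Lyz2 was at 36.4 CPM, Cd14 at 86.3 CPM and Clec4d at 55.9 CPM. WT had too few keratinocytes (11) to compare. Macrophage markers summed to 266 CPM in Has2-transgenic and 176 CPM in WT Ccr7 dendritic cells and monocyte markers to 729 and 611 CPM. With cells that held C1qb, C1qc or Ms4a7 left out, the log2 ratio of Lyz2 was 3.03, and with the top cell of each library left out, which held 47.7% of the Has2-transgenic UMIs, it was 1.8, against 2.16 over all cells.

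Other high and low values rested in part on single cells. The Has2-transgenic cell with most UMIs of the gene held 66% of the UMIs for Il1a, 52.4% for Tnf and 83.1% for Spp1. Ccl5, a chemokine for T cells, was at 472 CPM in Has2-transgenic cells and 134 CPM in WT cells, with 47.3% of the Has2-transgenic UMIs in 1 cell, and its log2 ratio was 1.81 with that cell and 1.07 without the top cell of each library. On the lower side, the WT cell with most UMIs held 52.3% of the UMIs for Dcn, 97.5% for Ptx3 and Tnc, 97.8% for Mmp3, 95.4% for Tnfaip6, 62.3% for Ccl7 and 70.8% for Ccl2, and 30.7% for Pf4. For Ccl2, 1 Has2-transgenic cell likewise held 78.6% of the Has2-transgenic UMIs. A Ccl2 UMI was found in 15.2% of Has2-transgenic and 15.9% of WT cells. Without the top cell of each library the log2 ratio was 1.15 for Il1a, 0.75 for Tnf and -0.5 for Spp1. It was -4.42 for Dcn, -3.73 for Pf4, -2.02 for Ccl2 and -1.88 for Ccl7, all still past 2-fold. Ptx3 was at -1.92, Mmp3 at -1.64, Tnfaip6 at -0.79 and Tnc at 0.15, on 0 or 1 Has2-transgenic UMIs. With cells that held C1qb, C1qc or Ms4a7 left out, Pf4 was at -0.21. Fibroblast markers other than Dcn, used in part by the rule, summed to 48.9 CPM in Has2-transgenic cells and 54.9 CPM in WT cells.

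Other lower values were spread over many cells. Fabp5, a fatty-acid-binding protein, was at 1897 CPM in Has2-transgenic cells and 3822 CPM in WT cells (ratio 0.496, 0.462 to 0.532). Ccnd2, a D-type cyclin, was at 93.6 and 284 CPM (ratio 0.329, 0.236 to 0.448), with a UMI in 41.3% and 68.8% of cells. Lgals1, galectin-1, was at 323 and 728 CPM (ratio 0.444, 0.373 to 0.525), and Lars2, a mitochondrial leucyl-tRNA synthetase, at 885 and 1875 CPM. All of these kept their sign in the 16 alternatives.

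**Figure D3:**
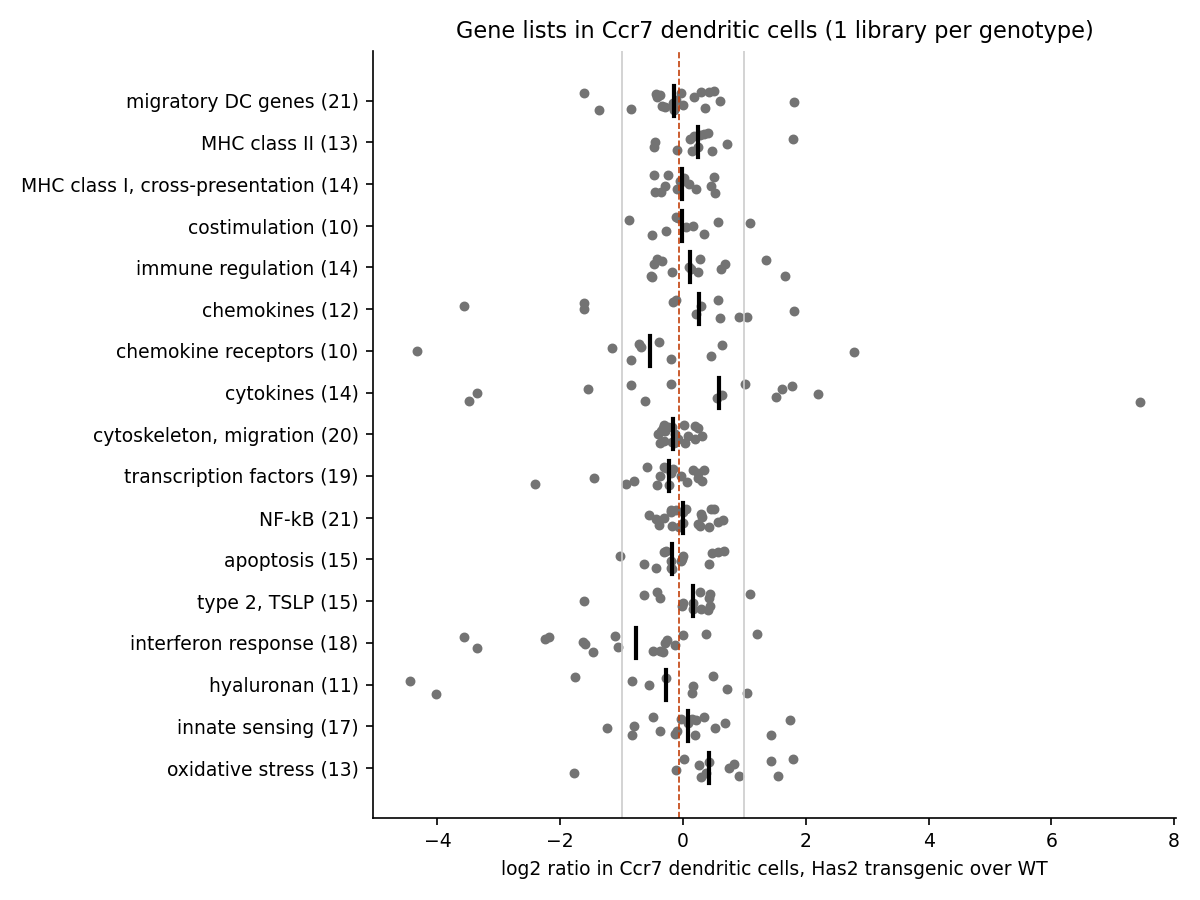
log2 ratio of each measured gene in Ccr7 dendritic cells, Has2-transgenic over WT, by gene list without the genes of the rule, with the number measured in brackets. Black bars are list medians, the dashed line is the median of all genes (-0.07) and grey lines mark 2-fold. Interferon-response genes lie lowest (-0.77) and cytokine genes highest (0.60), and class II (0.24) and oxidative-stress genes (0.43) are among the lists above 0.

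Against conventional dendritic cells, the migratory programme was clear in both libraries. Over all genes, 306 of 5414 (5.65%) were at least 2-fold higher in both libraries and 271 (5.01%) at least 2-fold lower; within the Has2-transgenic library alone the shares were 13.1% higher and 9.86% lower, and within WT 11.6% and 7.94%. Of the 18 migratory genes measured in both and not used by the rule, 16 were at least 2-fold higher in both libraries and none lower, with median log2 ratios of 3.67 in the Has2-transgenic and 3.50 in the WT library. Because the conventional gate admits no cell with Ccr7, Fscn1 or Ccl22 and the Ccr7 dendritic cells were chosen by the same genes, this is a description. Against the MHC class II macrophage gate, 8.81% of 8375 genes were at least 2-fold higher in both libraries and 10.2% lower, and of 19 migratory genes measured 18 were higher and none lower.

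The genes that stood apart most were ranked by the library with the weaker ratio bound. The same direction was required in both libraries, so their agreement was set in advance. Cd200, ligand of an inhibitory receptor on myeloid cells, was at 240.3 CPM in Has2-transgenic Ccr7 dendritic cells and 1.69 CPM in conventional ones, and at 306 CPM in WT Ccr7 dendritic cells, where the conventional gate had none. Cacnb3, a calcium channel subunit, was at 351 CPM against 5.06 CPM in the Has2-transgenic library and at 387 CPM against 0.957 CPM in WT. Serpinb6b and Serpinb9, protease inhibitors of the serpin family, Il2ra, the alpha chain of the interleukin-2 receptor, and Ly75 (DEC-205), an endocytic receptor, were on the same list. Il2ra was at 199.9 CPM against 1.69 CPM in the Has2-transgenic library and at 200.2 CPM against 6.7 CPM in WT, and the ratio between the libraries in Ccr7 dendritic cells was 0.998 (0.788 to 1.25). At least 2-fold higher in both were 8 of 18 measured transcription factors, 6 of 14 apoptosis genes and 5 of 13 class I genes.

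Macrophage and monocyte genes lay on the other side. Lyz2 was at 1123 CPM in Has2-transgenic Ccr7 dendritic cells and 9285 CPM in the conventional gate, and at 250.4 and 2699 CPM in WT. Ccl6, a chemokine of myeloid cells, was at 113 against 1052 CPM and at 97.2 against 961 CPM, and Apoe, Chil3 and Fn1 were on the same list. The conventional gate itself held C1qb or C1qc in 22.4% of its Has2-transgenic and 13.8% of its WT cells, against 13% and 6.37% of Ccr7 dendritic cells, and the part of such cells in these differences was not tested. All 5 macrophage markers measured and 4 of 5 monocyte markers were at least 2-fold lower in both libraries, as were 6 of 14 innate-sensing genes.

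**Figure D4:**
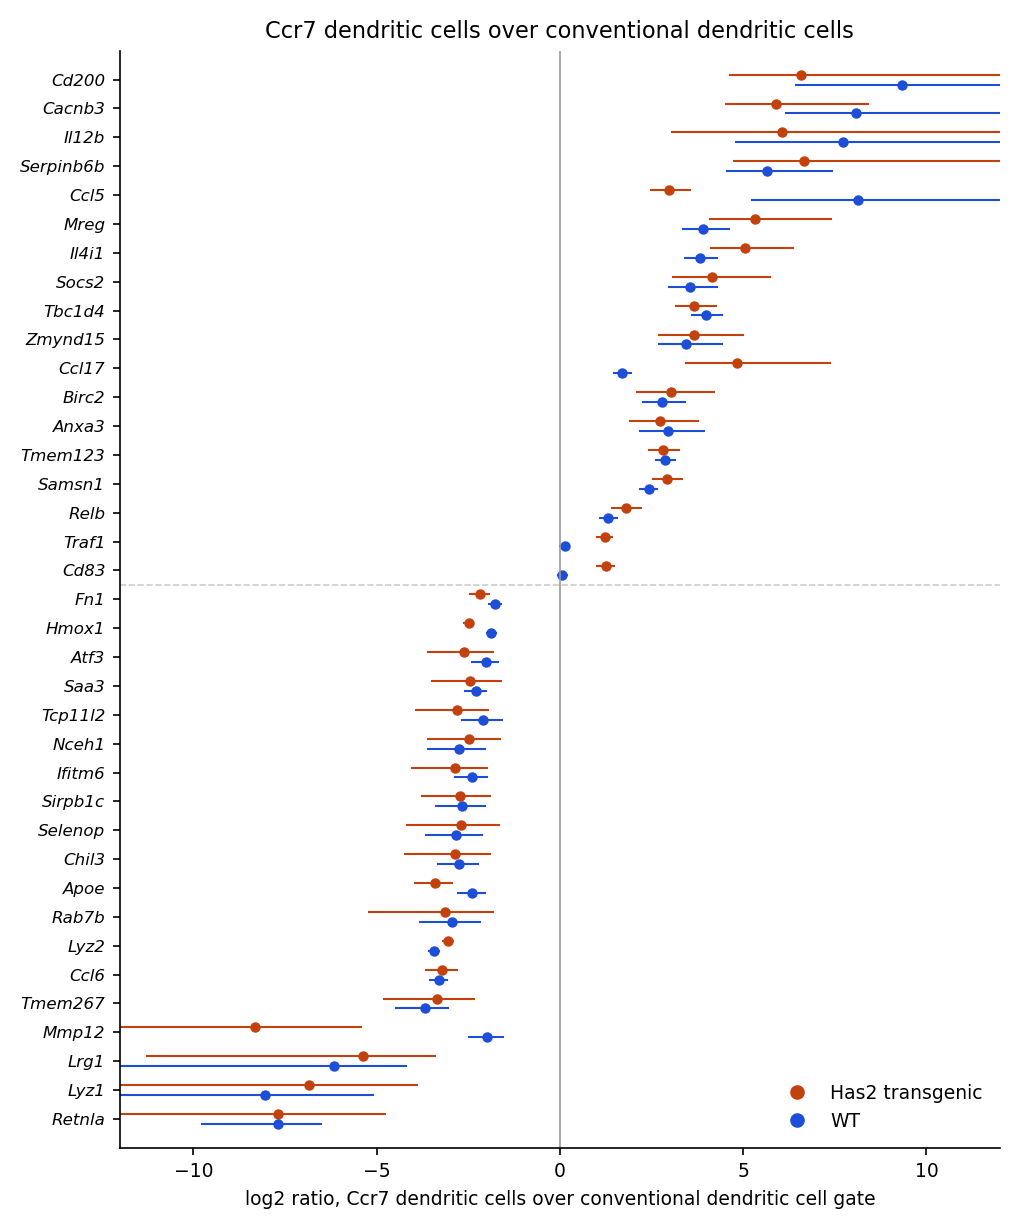
log2 ratio of Ccr7 dendritic cells over the conventional dendritic cell gate within each library (Has2-transgenic above WT in each row), with exact 95% intervals of counting error cut at the axis. The 18 migratory genes not used by the rule are above the dashed line, and genes from the 20 lowest against the gate are below it, 19 of them shown; Cd200 had log2 ratios of 6.57 and 9.32, and Lyz2 lies below 0 in both libraries.

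Origin markers were sparse. Xcr1, Clec9a or Wdfy4, genes of type 1 dendritic cells, were found in 19.6% of Has2-transgenic Ccr7 dendritic cells (9.36% to 33.9%) and 39.5% of WT ones (31.8% to 47.6%), mostly through Wdfy4. Cd209a, Mgl2 or Clec10a, of type 2 cells, were found in 45.7% and 50.3%. Neither set was specific: in the macrophage gate the first was found in 20.7% of Has2-transgenic and 28.9% of WT cells and the second in 28.5% and 32.9%. Cd207 or Epcam, of Langerhans cells, were found in 6 Has2-transgenic cells (13%, 4.94% to 26.3%) and 3 WT cells (1.91%, 0.396% to 5.48%), and both together in 1 Has2-transgenic and no WT cell. T cell genes had no UMI in the 46 Has2-transgenic cells, which allows a share of cells with such a UMI of up to 6.52%, and a UMI in 9 WT cells (5.73%). Cd79a, of B cells, had no UMI in the Ccr7 dendritic cells of either library.

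The Ccr7 dendritic cells fell into unequal kinds by Fscn1, a split made after the values were seen and given as a description. Fscn1 had a UMI in 19 of the 46 Has2-transgenic cells and 77 of the 157 WT cells. Depth did not separate the kinds: the median was 8910 UMIs with Fscn1 and 9625 without in the Has2-transgenic library, and 10290 and 11486 in WT. After thinning, cells with Fscn1 had a median of 11 migratory genes in the Has2-transgenic library and 12 in WT, and cells without it had 6 in both. Over all genes, 158 of 3390 (4.66%) were at least 2-fold higher with Fscn1 in both libraries and 121 (3.57%) lower. Of 18 migratory genes measured, 10 were higher and none lower.

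Cells with Fscn1 carried the fuller migratory programme. Cd200 was at 525 CPM in cells with Fscn1 and 62.2 CPM in cells without it in the Has2-transgenic library, and its log2 ratio was 3.05 there and 2.47 in WT. Cacnb3, Socs2, a STAT5-induced inhibitor of cytokine signalling, and Itga4, an integrin chain, followed, with log2 ratios of 3.01, 2.77 and 3.22 in the Has2-transgenic library and 2.37, 2.42 and 2.33 in WT. Batf3, a transcription factor of type 1 cells, had log2 ratios of 3 and 2.28, and Stat4 2.12 and 1.66. Fabp5 was at 3791 and 712 CPM in the Has2-transgenic library, with log2 ratios of 2.41 there and 2.37 in WT.

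Cells without Fscn1 held more genes of pathogen sensing and uptake. Of 10 innate-sensing genes measured, 6 were at least 2-fold lower with Fscn1 in both libraries and none higher. Clec7a (dectin-1), a receptor for fungal glucans, had log2 ratios of -1.74 in the Has2-transgenic library and -1.15 in WT, and Cd14 had -1.34 and -3.18. Il1r2, the decoy receptor of interleukin-1, was at 348 CPM with Fscn1 and 1607 CPM without it in the Has2-transgenic library, and at 192 and 906 CPM in WT. Plac8, Ly6a and Timp1 were on the same list. Of 14 class II genes 1 was at least 2-fold lower with Fscn1 in both libraries, and H2-Ab1 had log2 ratios of -0.85 and -0.75. Ccr2, a receptor of monocytes, had no UMI in Has2-transgenic cells with Fscn1 and was at 24.2 CPM in those without. This rests on few transcripts, since 4 Ccr2 UMIs were left in Has2-transgenic cells without the top cell.

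**Figure D5:**
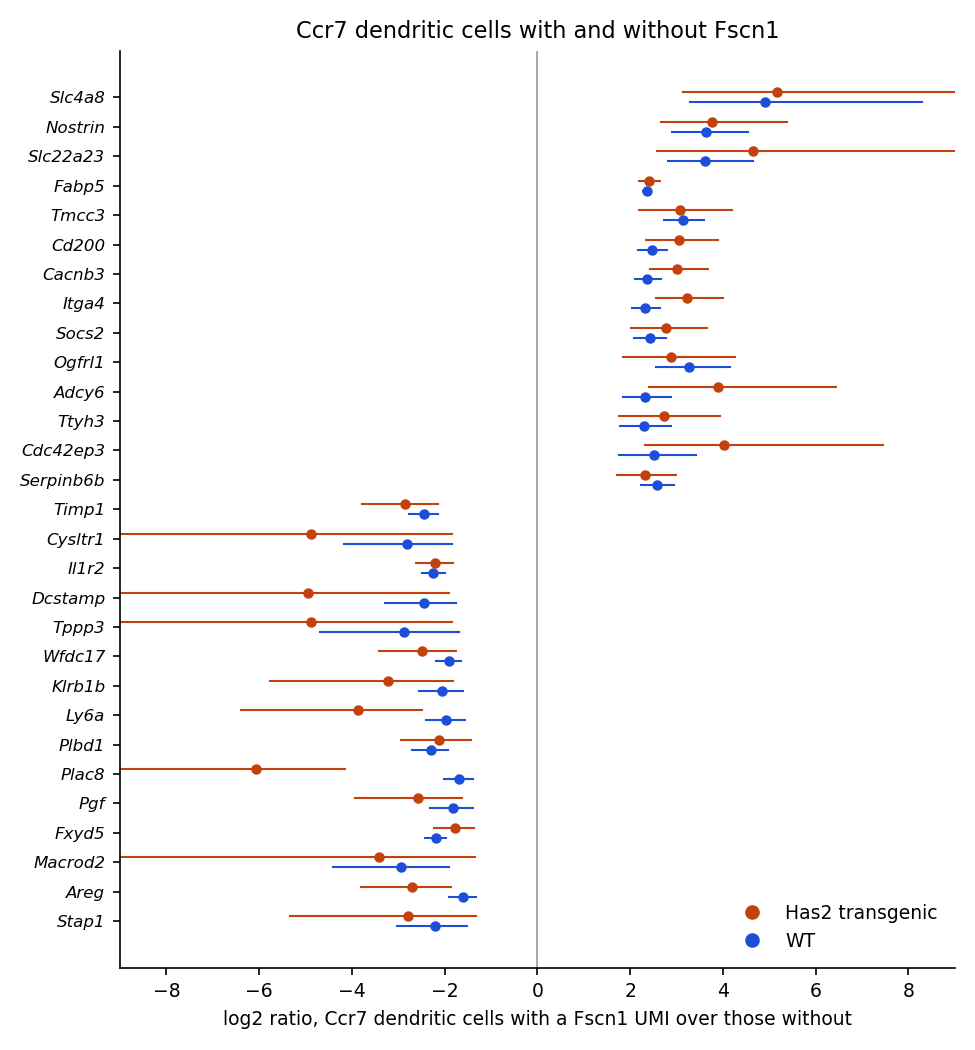
log2 ratio of Ccr7 dendritic cells with a Fscn1 UMI over those without (Has2-transgenic above WT in each row), with exact 95% intervals of counting error cut at the axis. Shown are 14 of the 15 highest and the 15 lowest genes by the ratio common to both libraries; Cd200 had log2 ratios of 3.05 and 2.47, and Il1r2 -2.2 and -2.24.

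Some differences between the libraries had the same direction in both kinds and others did not, 29 and 12 of 41 genes compared. Most of the 41 had been picked for their large ratio over these same cells, so a common direction was partly set in advance. Direction was counted by sign alone, so the 12 include ratios near 1. Cdk8 with Fscn1 was at 0.998 (0.735 to 1.34), and Il4i1 without it at 1.04 (0.839 to 1.29). Ccl17 was at 111 CPM in Has2-transgenic and 457 CPM in WT cells with Fscn1 (ratio 0.242, 0.146 to 0.379), and at 204 and 575 CPM in cells without it (ratio 0.355, 0.267 to 0.464). Fabp5 had ratios of 0.56 (0.517 to 0.606) and 0.544 (0.468 to 0.631), Ccnd2 of 0.316 and 0.355, and Lgals1 of 0.235 and 0.495. Lyz2 was higher in Has2-transgenic cells of both kinds, with ratios of 3.56 (2.87 to 4.41) and 4.96 (4.23 to 5.83). Of the 12 genes without a common direction, Tnf had a ratio of 22 with Fscn1 and 0.25 without it, Il1a 32.5 and 0.774, and Thbs1 26.2 and 0.644. Ccl2 had 2.71 and 0.0592, Ccl7 3.13 and 0.082, and Il4i1 0.635 and 1.04, and the others were Inhba, Spp1, Sfn, Tnc, Tnfaip6 and Cdk8. Single cells held much of several of these genes. With Fscn1, 1 Has2-transgenic cell held 64 of 81 Il1a UMIs and 46 of 53 Inhba UMIs, and 1 WT cell held 195 of 197 Tnc UMIs. Without Fscn1, 1 WT cell held 861 of 1074 Ccl2 UMIs. Whether the 2 kinds differ in these genes apart from such cells was not tested.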

How the data were processed

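The authors deposited UMI counts per gene and barcode (whole numbers, not normalized), made with Cell Ranger 9.0.1 on build GRCm39, per the submitters' processing notes. From these counts, barcodes were kept if 200 genes or more were detected and mitochondrial genes took no more than 15% of UMIs, and gene symbols that occur more than once were read from the row with most UMIs. UMIs were summed over the cells of a gate in each library and scaled to a total of 1000000 UMIs over those cells (CPM). Ratios have exact conditional 95% intervals and shares have exact binomial (Clopper-Pearson) ones, which cover counting error only; log2 ratios had 0.5 added to each count. The interval calculation was tested on simulated data. Genes with at least 20 UMIs over both groups were counted as measured, and a ratio past 2-fold was counted as called. Shares of cells with a UMI were also computed after each cell had been thinned to 3000 UMIs. The limit of a count of 0 is 3 counts of the total. No p-value was computed, since each genotype had 1 library.

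Genes named between the libraries were the 15 per direction with the ratio farthest from 1 by the nearer bound of the interval. They were taken from genes with at least 50 UMIs and 100 CPM. Between gates they were the 20 per direction by this bound in the library where it was weaker, leaving out genes that defined either gate. For the Fscn1 split they were 15 per direction likewise. Both of these rankings required the same direction in both libraries. List genes are named besides. The cells and the 35 gene lists were chosen with earlier results of these data known. The Fscn1 split and the keratinocyte and neutrophil gates were chosen after values were seen. Doublets were not removed. Scrublet, run in scanpy 1.11.5, marked 0% of Has2-transgenic and 1.4% of WT barcodes at its automatic threshold. Removal of the highest scores at an expected rate was therefore an alternative. It took out 10 of the 157 WT and 0 of the 46 Has2-transgenic Ccr7 dendritic cells. Python 3.11.15, numpy 2.4.6, scipy 1.17.1, pandas 2.3.3 and matplotlib 3.10.9 were used. Promoter windows came from RefSeq tables on build GRCm38.p6, not from the build of the counts. Some genes are not reported here.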

Additional observations from a re-analysis of the deposited data

How the results depend on the processing

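No paired analysis was possible because each genotype had 1 library. The share of Ccr7 dendritic cells was lower in the Has2-transgenic library under every alternative run, with ratios from 0.257 to 0.369. The counts of genes past 2-fold depended on the treatment of the data. Between the libraries they were 138 higher and 322 lower after thinning, 42 and 102 with at least 100 UMIs, and 1945 and 1634 with no filter, and 1028 were lower with the top cell of each gene left out. Over the conventional dendritic cell gate they were 152 higher and 169 lower in both libraries after thinning and 106 and 94 with at least 100 UMIs, and 505 were lower against a gate with no dendritic cell genes required. Of 527 values of single genes under an alternative, 402 stayed within their interval, 107 lay outside it and 18 that were past 2-fold changed sign; Ccr7, not past 2-fold, was at -0.01 among cells with all 3 genes of the rule. Among cells with all 3 genes of the rule, the log2 ratio was -0.79 for Cd209a, -2.83 for Pltp, -3.45 for Sfn, 0.8 for Ptx3 and Tnfaip6, 2.01 for Ccl7 and 1.56 for Ccl2. With the top cell left out it was -0.5 for Spp1 and 0.15 for Tnc. With the highest Scrublet scores removed it was 0.73 for Tnc and 0.11 for Cdk8, and with cells that held T cell genes removed it was 0.47 for Ccl2. Alternatives chosen after seeing the data left out cells with Dcn, Pdgfra or Lum, which gave 1.83 for Mmp3, 0.24 for Tnfaip6 and Tnc, 0.31 for Ccl2 and 0.78 for Mt2, or cells with C1qb, C1qc or Ms4a7, which gave 0.2 for Cdk8. The cause of these changes was not tested.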

Other observations

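Chemokines and cytokines that many myeloid cells make were also abundant in Ccr7 dendritic cells. Il1b, an inflammatory cytokine, was at 6081 CPM in Has2-transgenic cells and 4122 CPM in WT cells, a ratio of 1.48 (1.41 to 1.54), and its antagonist Il1rn was at 521 and 259 CPM. Cxcl2, a neutrophil chemokine, was at 5307 and 2824 CPM. Without the top cell of each library, Il1rn was at 367 CPM in Has2-transgenic and 243 CPM in WT cells (log2 ratio 0.60). Cxcl2 was then at 3547 and 2549 CPM (log2 ratio 0.48). Of 14 cytokine genes measured, 8 were higher and 6 lower in Has2-transgenic cells. Past 2-fold were 6 higher and 3 lower, against 3.61% and 8.14% of all genes. This count was made over all cells. Without the top cell of each library the log2 ratio was 0.75 for Tnf and 1.15 for Il1a. The list's median log2 ratio was 0.60, ranging from 0.19 to 1.08 over the 16 alternatives. Of 15 lysosomal protease and pump genes, 11 were higher and 4 lower, with a median log2 ratio of 0.28.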
